A study of Homo sapiens with 24 samples.

Results

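The genes examined here encode feedback inhibitors of the MAPK pathway and the ETS factors that are read out with them. The 10 genes were DUSP1, DUSP4, DUSP5, DUSP6, SPRY2, SPRY4, SPRED1, SPRED2, ETV4 and ETV5. They were taken by name from the gene spots of the arrays, with every probe kept, which gave 14 of 41000 probes, for 10 of 30982 gene names. All 14 probes were among the 30418 probes that passed the filter on dim probes and were tested.

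When ERK is active it induces genes whose products switch the cascade off again. The DUSP genes encode dual specificity phosphatases that remove the activating phosphates from MAP kinases. Sprouty and SPRED proteins act further upstream, where they restrain the step from RAS to RAF. ETV4 and ETV5 are PEA3 family transcription factors whose messenger RNA rises with ERK output, and transcripts of this set are widely used as a readout of the pathway in receptor driven tumours such as glioblastoma.

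RNA came, by the labels, from U87 MG, an established human glioblastoma cell line, collected 24 h after proton therapy (PT) with 2 or 10 Gy, with or without 10 µM Si306, an inhibitor of SRC family kinases. Each 2-colour array set treated RNA, labelled with Cy5, against control RNA, labelled with Cy3. In the configurations U87 2 Gy and U87 10 Gy the control was untreated U87. In the Si306 configurations (U87 Si306 + 2 Gy, likewise U87 Si306 + 10 Gy) it was U87 given the same proton dose without Si306, so that both dyes held irradiated RNA. No configuration held Si306 without irradiation, and the dyes were not swapped, so that a preference of a probe for 1 dye and the treatment cannot be told apart within a configuration. A value is the log2 ratio of Cy5 to Cy3. The deposited files were labelled as 6 replicates for each configuration, but their headers named 8 arrays, each scanned 3 times. Means are therefore given over n = 2 arrays for each configuration, with the standard error (SE) of a limma model across all tested probes. The labels do not say whether both arrays held RNA of separate cultures, so that the p-values measure the spread between these arrays, which may be technical.

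Before the ratios are read, the signals of the arrays have to be set side by side. The 4 arrays of PT alone lay on 1 slide (slide 1) and the 4 arrays with Si306 on another (slide 2). RNA labelled as U87 2 Gy or U87 10 Gy was measured on both, in Cy5 on slide 1 and in Cy3 on slide 2. Array mean signals correlated at 0.997 to 0.999 within a slide and at 0.879 to 0.882 between the slides, across 30418 probes. For RNA labelled U87 2 Gy, 26.6% of all probes differed by more than 2-fold between the slides, and for U87 10 Gy 26.8% did. Of 8 glioma and mesenchymal markers, 6 were above background on slide 1 and 7 on slide 2. VIM had about the same log2 signal on both slides (16.8 to 17.4 and 16.7 to 17.3), CD44 was lower on slide 2 (15.1 to 15.3 against 12.8 to 13.4) and SOX2, by the brighter of its 2 probes, was not well above background on any array of slide 1. Of 8 markers of other cells, 4 were above background on slide 1 and 4 on slide 2, with a summed log2 signal of 9.23 to 9.34 and of 11.4 to 11.8. The epithelial gene EPCAM stood at 5.83 to 6.52 on slide 1 and at 10.7 to 11.3 on slide 2, and the endothelial gene PECAM1 at 6.05 to 6.16 and 9.07 to 9.47, while PTPRC, CDH1 and KRT5 were not well above background on any array. Of 6 further genes, chosen after their values were seen, the epithelial genes KRT19 (7.35 to 7.50 against 16.6 to 17.0), KRT18 (8.39 to 8.78 against 14.9 to 15.5) and SPINT2 (6.43 to 6.71 against 15.8 to 16.4) were higher on slide 2. UCHL1 (16.3 to 16.6 against 5.95 to 6.16), CHI3L1 (12.5 to 13.0 against 5.89 to 6.26) and CDH2 (9.91 to 10.5 against 5.80 to 6.12) were well above background on slide 1 only. Each range covers both dyes, and these genes lay apart by slide in either dye. Slide and RNA cannot be told apart. Whether the arrays labelled with Si306 held RNA of the same cells as those of PT alone was not tested, and every Si306 value below carries this limit. Ratios compare the 2 channels of 1 array, and each is given below for the arrays as they were labelled.

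The same split ran through the genes examined here, as the plot of their signals by slide shows. DUSP6 had a log2 signal of 10.9 to 11.3 in the channels of slide 1 and of 14.0 to 14.5 in those of slide 2. SPRY4 was at 7.03 to 7.18 on slide 1, and at 10.4 to 10.7 on slide 2. DUSP1 went the other way, with 13.3 to 13.5 on slide 1 and 10.5 to 12.04 on slide 2. These 3 genes did not overlap between the slides, and neither did DUSP4 (12.3 to 12.5 and 13.1 to 13.5), DUSP5, SPRED1 probe 1 and ETV4 probe 1. These were 7 of 14 probes, or 50%, against 61.3% of all tested probes with a value in every channel. For RNA of the same label the signal of slide 2 minus that of slide 1 was 3.28 for DUSP6, 3.34 for SPRY4 and -2.71 for DUSP1 at 2 Gy, and 3.52, 3.44 and -2.87 at 10 Gy. In this difference DUSP6 lay at percentile 98.8 of all probes at 2 Gy, and DUSP1 at percentile 1.9. SPRY2, SPRED2 and ETV5 had overlapping signals on the slides.

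**Figure D1:**
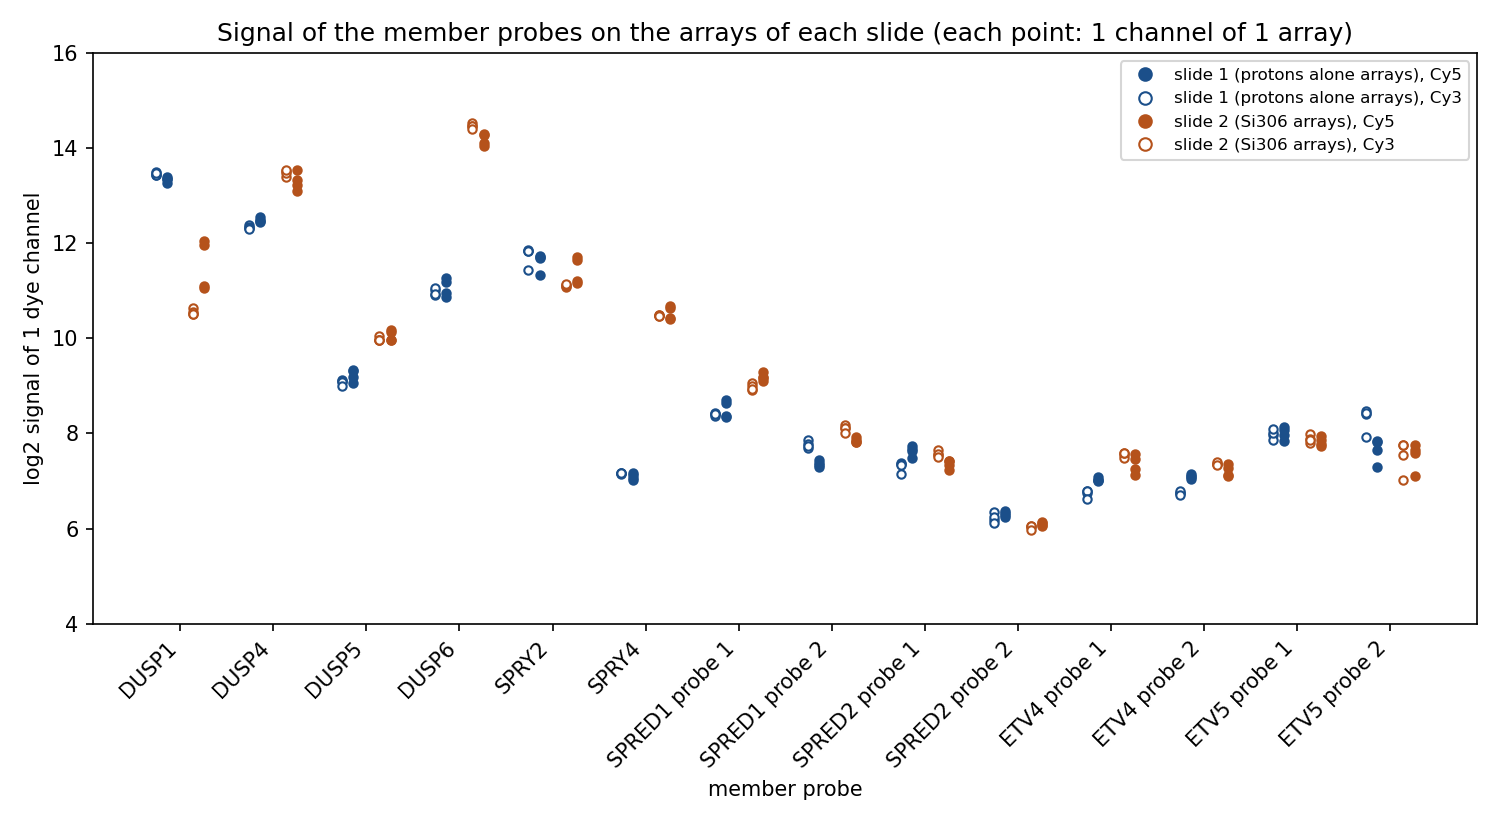
Log2 signal of each member probe (y axis, 1 dye channel) by probe (x axis), with 1 point for each channel of each array (filled Cy5, open Cy3). DUSP6 and SPRY4 sat more than 3 log2 units higher on the arrays of slide 2 (Si306 configurations) than on those of slide 1 (PT alone), and DUSP1 sat lower.

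In the 4 configurations most of these genes moved by small steps. With an adjusted p under 0.05, 10 of 14 probes changed in U87 2 Gy (6 up, 4 down), where 57.2% of all tested probes did (32.1% up, 25.1% down). In U87 10 Gy 9 probes changed (5 up, 4 down), against 58.2% of all probes (31.4% up, 26.8% down). In U87 Si306 + 2 Gy 10 changed (4 up, 6 down), against 64.8% (36.3% up, 28.5% down). In U87 Si306 + 10 Gy 7 changed (3 up, 4 down), against 60.9% (33.1% up, 27.8% down). These counts were near the share of all probes and say little about the genes themselves. With outlier spots kept in the background fit the 4 counts were 2, 0, 4 and 4, where 11.1%, 12.3%, 22.4% and 13.6% of all probes passed. The calls that held there were those of DUSP1 and DUSP6 in U87 2 Gy, of DUSP1, DUSP5, DUSP6 and SPRY2 with Si306 at 2 Gy, and of DUSP1, DUSP4, DUSP6 and SPRY4 with Si306 at 10 Gy. SPRED2 probe 2, which was at background (below), is counted among the 14 and in their median. The median log2 ratio of the 14 probes was 0.04, 0.07, -0.05 and -0.02 in the 4 configurations in that order, against 0.02, 0.01, 0.03 and 0.02 over all tested probes. At 1.5-fold or more, ETV5 probe 2 was down regulated in U87 2 Gy (all probes 0.846% down, 2.93% up) and in U87 10 Gy (all probes 1.5% down, 3.25% up). DUSP1 and SPRY2 were up regulated by as much in U87 Si306 + 2 Gy (all probes 2.79% up, 1.9% down), and no member was in U87 Si306 + 10 Gy (all probes 1.84% up, 1.69% down). Except for DUSP1, these values lay close to the 1.5-fold line or fell short of it in some settings. SPRY2 was below it without array 2 of its configuration (0.57), with the curve on GC content (0.583) and with outlier spots kept (0.56). ETV5 probe 2 in U87 10 Gy was short of it without array 2 (-0.56), without background correction (-0.57), with the GC curve (-0.577), with median centring (-0.28) and with outlier spots kept, and in U87 2 Gy with the last 2 of these (-0.47 with median centring). DUSP1 passed it with Si306 at 10 Gy too when array 2 was left out (0.59) and with median centring (1.14). With median centring 3, 2, 7 and 4 probes were up and 0, 0, 1 and 0 down by 1.5-fold or more in the 4 configurations. By the log ratio of the scanner software 1, 2, 2 and 0 were up and 2, 2, 2 and 0 down. The share of all probes at 1.5-fold was not computed for these settings. Leaving the alternatives aside, DUSP1 in U87 Si306 + 2 Gy was the one value at 2-fold or more, where 0.49% of all probes were up and 0.161% down regulated. In the other 3 configurations no member reached 2-fold, against 0.645% of all probes up and 0.0428% down in U87 2 Gy, 0.779% and 0.135% in U87 10 Gy, and 0.253% and 0.0888% in U87 Si306 + 10 Gy. Under alternatives ETV5 probe 2 did in U87 2 Gy (-1.10 by the log ratio of the scanner software), and DUSP1 did in U87 Si306 + 10 Gy (1.14 with median centring).

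**Figure D2:**
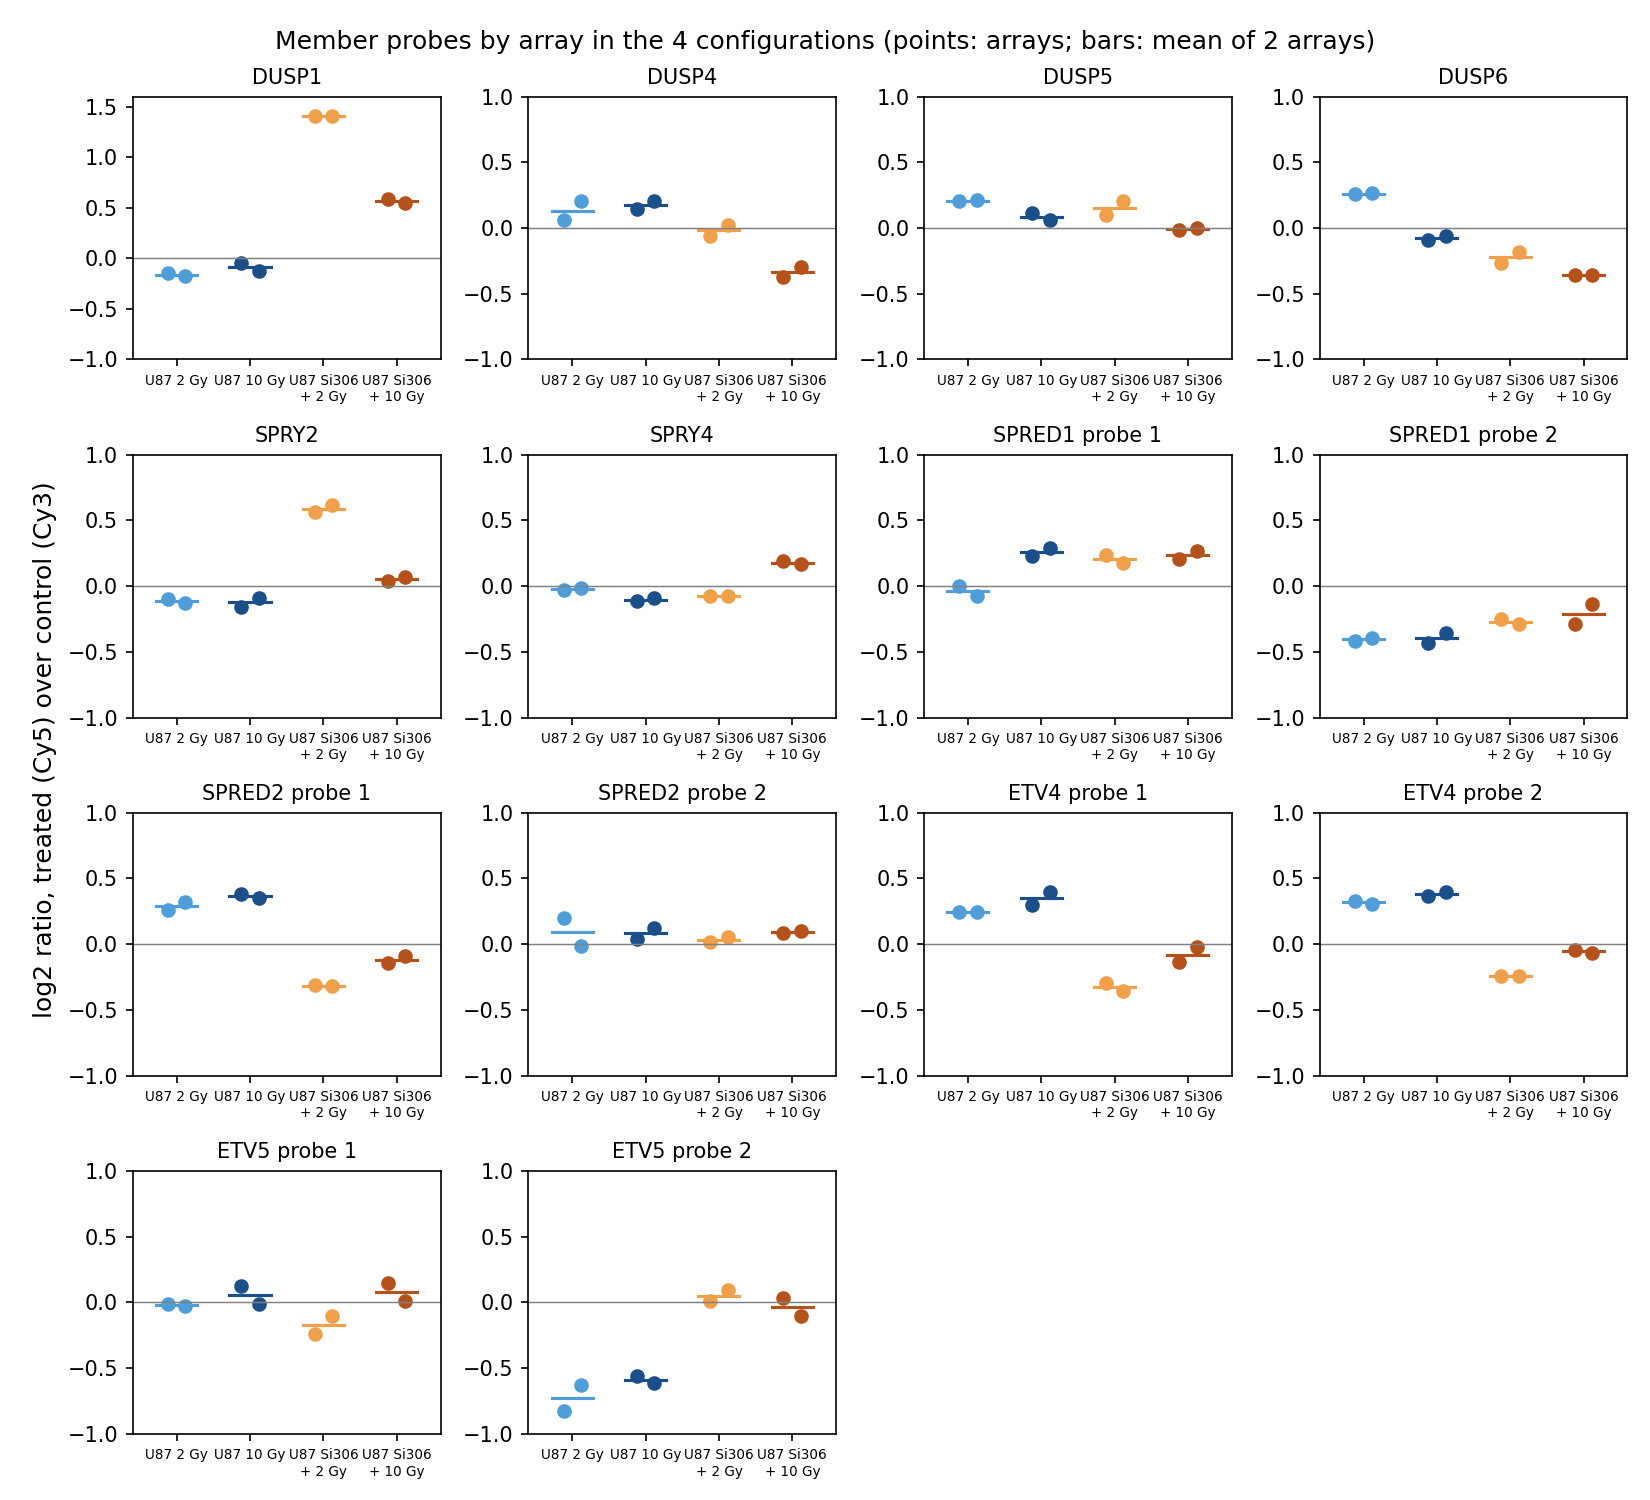
Log2 ratio of treated (Cy5) over control (Cy3) on the y axis for each of the 14 member probes, by configuration on the x axis, with points for the 2 arrays and a bar for their mean (the axis of DUSP1 reaches higher). DUSP1 in U87 Si306 + 2 Gy stands at 1.41 on both arrays, while most other values lie within 0.5 of 0.

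DUSP1, an immediate early phosphatase that acts on p38, JNK and ERK, gave the largest change of the 14 probes. Its probe lies at chr5:172127902-172127961 on the minus strand of hg17, the build of the array. In U87 Si306 + 2 Gy its log2 ratio was 1.41 on array 1 and 1.41 on array 2, and in U87 Si306 + 10 Gy it was 0.59 and 0.55. All 4 Si306 arrays were above 0, and the 2 doses did not overlap. The fitted change was 1.41 ± 0.03 (SE, n = 2), or 2.65-fold, in U87 Si306 + 2 Gy (adjusted p = 2.37e-10), above 99.8% of all probes. In U87 Si306 + 10 Gy it was 0.57 ± 0.03 or 1.48-fold (adjusted p = 1.63e-07). In these 2 configurations the call held under all 21 alternatives, with values of 1.26 to 2.33 and of 0.47 to 1.14.

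After PT alone DUSP1 was at -0.15 and -0.18 on the arrays of U87 2 Gy and at -0.04 and -0.12 on those of U87 10 Gy. All 4 arrays were slightly below 0. The change was -0.16 in U87 2 Gy (adjusted p = 0.00177), and it turned to 0.49 with median centring in place of loess. In U87 10 Gy it was -0.08, which did not pass (adjusted p = 0.0540), and 0.47 with median centring.

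The stretches of 250 bases before the annotated starts of DUSP1, SPRY2 and DUSP6 are shown because, with loess, the first 2 rose and DUSP6 fell in U87 Si306 + 2 Gy. With median centring DUSP6 rose there too (1.02). The stretches were taken from RefSeq (GRCh38.p14), which held an entry for 6 of the 10 genes. Each is printed 5′ to 3′ on the strand of the gene, here minus, with TGACG and its complement CGTCA in capitals. The DUSP1 stretch is chr5:172771196-172771445, that of SPRY2 chr13:80341127-80341376 (the farthest upstream of 3 entries) and that of DUSP6 chr12:89352502-89352751.
DUSP1: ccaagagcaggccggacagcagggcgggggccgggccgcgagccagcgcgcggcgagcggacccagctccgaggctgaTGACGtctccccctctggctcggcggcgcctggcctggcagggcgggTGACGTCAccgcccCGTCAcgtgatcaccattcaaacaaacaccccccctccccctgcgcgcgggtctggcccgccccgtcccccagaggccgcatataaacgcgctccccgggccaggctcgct
SPRY2: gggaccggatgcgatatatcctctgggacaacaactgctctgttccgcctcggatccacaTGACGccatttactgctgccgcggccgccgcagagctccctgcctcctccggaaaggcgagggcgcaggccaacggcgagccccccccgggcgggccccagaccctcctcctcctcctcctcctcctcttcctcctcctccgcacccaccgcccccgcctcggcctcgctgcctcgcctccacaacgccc
DUSP6: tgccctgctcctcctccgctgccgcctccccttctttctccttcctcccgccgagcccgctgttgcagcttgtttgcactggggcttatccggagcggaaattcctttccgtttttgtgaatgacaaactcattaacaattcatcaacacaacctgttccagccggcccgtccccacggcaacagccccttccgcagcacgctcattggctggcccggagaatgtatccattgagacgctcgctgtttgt
TGACG, the core of the cyclic AMP response element, was searched on both strands. It stood at 4 places in DUSP1, at 1 in the SPRY2 stretch shown and at none in DUSP6, nor in the other 2 SPRY2 entries. Of the genes with an entry that are not shown, SPRY4 held it at 1 place, and SPRED1 and SPRED2 at none. SPRY4 did not rise in U87 Si306 + 2 Gy (-0.08). Whether the motif bears on the ratios was not tested. Of 35116 promoters of the same length 21.2% held it at least at 1 place and 0.236% at 4 or more. In DUSP1 one pair of these overlaps in the full element TGACGTCA, which 1.65% of promoters held. The CArG box (held by 1.16% of promoters), GGAAGT (19.5%) and TGANTCA (6.57%), also searched on both strands, had no match in these 3 windows. GGAAGT stood at 1 place in another SPRY2 entry.

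DUSP6, the cytoplasmic phosphatase that acts on ERK and is the most direct readout of the set, followed another order. Its probe lies at chr12:88244612-88244671 on the minus strand of hg17. Its log2 ratio was 0.26 and 0.27 on the arrays of U87 2 Gy, -0.09 and -0.06 on those of U87 10 Gy, -0.27 and -0.18 in U87 Si306 + 2 Gy, and -0.36 and -0.36 in U87 Si306 + 10 Gy (1 of 3 scans of array 1 held no value there). The 2 arrays of each configuration lay apart from those of every other one. DUSP6 rose by 0.26 ± 0.03 in U87 2 Gy (adjusted p = 5.45e-05) and fell by 0.22 ± 0.03 in U87 Si306 + 2 Gy (adjusted p = 0.000147), and by 0.36 ± 0.03 in U87 Si306 + 10 Gy (adjusted p = 4.63e-06). In U87 10 Gy its value of -0.08 did not pass (adjusted p = 0.0764). With median centring DUSP6 was at 0.41 in U87 10 Gy, at 1.02 in U87 Si306 + 2 Gy and at 0.46 in U87 Si306 + 10 Gy, so that the direction with Si306 rests on the normalization.

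DUSP6 also bears on the 2 scans whose label named another dose than the other scans of their array. The scan labelled U87 2 Gy replicate 5, on an array of U87 10 Gy, gave -0.14, and the scan labelled U87 10 Gy replicate 2, on an array of U87 2 Gy, gave 0.25. The 5 other scans labelled U87 2 Gy gave 0.24 to 0.27 and the 5 others labelled U87 10 Gy gave -0.17 to -0.01. By DUSP6 each of the 2 scans thus lay with its array and not with its label. Not every probe was as clear. SPRED1 probe 1 went the same way, but ETV4 probe 1 of the scan labelled U87 10 Gy replicate 2 gave 0.46. That was above the other scans labelled U87 2 Gy (0.21 to 0.28) and U87 10 Gy (0.24 to 0.43). Both scans were left out because header and label disagreed, whatever their values. With both kept under their labels, DUSP6 in U87 2 Gy was 0.13 and did not pass (adjusted p = 0.202). Its call in U87 Si306 + 2 Gy was lost under that setting too, at an unchanged -0.22 (adjusted p = 0.0755).

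DUSP4, a nuclear phosphatase for ERK and JNK, moved mainly in the last configuration. It was at 0.06 and 0.20 in U87 2 Gy, at 0.14 and 0.20 in U87 10 Gy, at -0.06 and 0.03 in U87 Si306 + 2 Gy, and at -0.37 and -0.30 in U87 Si306 + 10 Gy. Array 1 of U87 Si306 + 2 Gy held a value in 1 of its 3 scans, so that its -0.06 rests on that scan, and 1 of 3 scans held none on array 1 of U87 2 Gy and of U87 Si306 + 10 Gy. The arrays of U87 Si306 + 10 Gy lay below all others. There it fell by 0.34 ± 0.04 (adjusted p = 4.43e-05), a value that became 0.38 with median centring. It rose by 0.13 in U87 2 Gy (adjusted p = 0.0212) and by 0.17 in U87 10 Gy (adjusted p = 0.00458). Without array 2 these were 0.06 (adjusted p = 0.383) and 0.14 (adjusted p = 0.0949), and in U87 2 Gy the value was 0.07 with a curve on probe GC content subtracted.

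DUSP5, a nuclear phosphatase specific for ERK, was at 0.20 and 0.21 in U87 2 Gy and at 0.11 and 0.06 in U87 10 Gy. With Si306 it was at 0.10 and 0.21 at 2 Gy and at -0.02 and -0.002 at 10 Gy. It rose in U87 2 Gy (0.21 ± 0.04, adjusted p = 0.000489; 0.13 by the log ratio of the scanner software) and in U87 Si306 + 2 Gy (0.15 ± 0.04, adjusted p = 0.00345). The second call was lost without array 2, which left 0.10 (adjusted p = 0.114).

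SPRY2, a Sprouty protein that binds GRB2 and CBL, was up regulated with Si306 at 2 Gy. Its probe lies at chr13:79808623-79808682 on the minus strand of hg17, and the promoter stretch is shown above. The log2 ratio was 0.57 and 0.61 in U87 Si306 + 2 Gy and 0.04 and 0.07 in U87 Si306 + 10 Gy, and the 2 doses did not overlap. It rose by 0.59 ± 0.03 or 1.5-fold in U87 Si306 + 2 Gy (adjusted p = 9.79e-08), which held under all 21 alternatives (0.56 to 1.51). In U87 Si306 + 10 Gy its value of 0.05 did not pass (adjusted p = 0.205).

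After PT alone SPRY2 was at -0.10 and -0.13 on the arrays of U87 2 Gy and at -0.16 and -0.09 on those of U87 10 Gy. It fell by 0.11 in U87 2 Gy (adjusted p = 0.0142) and by 0.12 in U87 10 Gy (adjusted p = 0.00871), values that turned to 0.50 and 0.39 with median centring. Both calls were lost with 1 array fewer. Without array 2 of U87 2 Gy the value was -0.10 (adjusted p = 0.119), and without array 1 of U87 10 Gy it was -0.09 (adjusted p = 0.148).

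SPRY4, the other Sprouty gene on the list, was at -0.03 and -0.01 in U87 2 Gy, at -0.11 and -0.09 in U87 10 Gy, at -0.07 and -0.08 in U87 Si306 + 2 Gy, and at 0.19 and 0.17 in U87 Si306 + 10 Gy. Only the arrays of U87 Si306 + 10 Gy were above 0. It rose there by 0.18 ± 0.03 (adjusted p = 0.000489), a call that held under all 21 alternatives (0.14 to 0.74). The fall of 0.10 in U87 10 Gy (adjusted p = 0.0149; -0.24 by the log ratio of the scanner software) was lost without array 1 (-0.09, adjusted p = 0.122), without array 2 (-0.11, adjusted p = 0.0606) and with the 2 conflicting scans kept under their labels (-0.05, adjusted p = 0.279). In U87 Si306 + 2 Gy the value of -0.08 did not pass (adjusted p = 0.0528) and became 0.76 with median centring.

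The SPRED proteins share a Sprouty related domain and bring neurofibromin to RAS. SPRED1 had 2 probes on the array. They lay on opposite sides of 0 in all configurations but U87 2 Gy, where both means were below 0 and probe 2 alone passed the test. Both lie on the plus strand, probe 1 at chr15:36433052-36433111 and probe 2 upstream of it at chr15:36431184-36431243 (hg17). The first 30 bases of each are shown because the reading of the gene depends on which probe is used.
SPRED1 probe 1: tactgtttatatatttgaatgctgctacaa
SPRED1 probe 2: aaatctttgtttccaggaattagctaactt
Probe 1 was at 4e-04 and -0.08 in U87 2 Gy, at 0.23 and 0.29 in U87 10 Gy, at 0.24 and 0.18 in U87 Si306 + 2 Gy, and at 0.21 and 0.27 in U87 Si306 + 10 Gy. Probe 2 was at -0.42 and -0.39, -0.43 and -0.36, -0.25 and -0.29, and -0.29 and -0.13 in the same order. Probe 2 was below 0 on all 8 arrays, whatever the treatment, and below probe 1 on each of them.

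By probe 1 SPRED1 rose by 0.26 ± 0.04 in U87 10 Gy (adjusted p = 0.000104), by 0.21 in U87 Si306 + 2 Gy (adjusted p = 0.000495) and by 0.24 in U87 Si306 + 10 Gy (adjusted p = 0.000198). By probe 2 it fell by 0.40 ± 0.04 in U87 2 Gy (adjusted p = 9.14e-06), by 0.39 in U87 10 Gy (adjusted p = 9.84e-06), by 0.27 in U87 Si306 + 2 Gy (adjusted p = 0.000164) and by 0.21 in U87 Si306 + 10 Gy (adjusted p = 0.00103). For probe 2 median centring gave 0.13 at 2 Gy and 0.053 at 10 Gy with Si306, and without array 1 of U87 Si306 + 10 Gy the value was -0.13 (adjusted p = 0.0562). With outlier spots kept in the background fit no SPRED1 call held. Probe 1 was then at 0.13, 0.12 and 0.062 in the 3 configurations in which it had passed (adjusted p = 0.119, 0.114 and 0.724), and probe 2 at -0.063, -0.23, -0.094 and -0.028 in all 4 (adjusted p = 1.00, 0.134, 0.633 and 1.00). The calls of probe 1 were also lost with the 2 conflicting scans kept under their labels (0.13, 0.21 and 0.24, adjusted p = 0.166, 0.0867 and 0.0569). A dye preference of either probe was not tested.

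SPRED2 had 1 probe that could be read. Probe 1 (chr2:65450502-65450561, minus strand, hg17) was at 0.26 and 0.32 in U87 2 Gy, at 0.38 and 0.35 in U87 10 Gy, at -0.31 and -0.31 in U87 Si306 + 2 Gy, and at -0.15 and -0.09 in U87 Si306 + 10 Gy. All PT alone arrays were above 0 and all Si306 arrays below. It rose by 0.29 ± 0.03 (adjusted p = 2.62e-05) and 0.36 ± 0.03 (adjusted p = 3.71e-06) after PT alone, and fell by 0.31 ± 0.03 in U87 Si306 + 2 Gy (adjusted p = 1.08e-05). In U87 Si306 + 10 Gy it fell by 0.12 (adjusted p = 0.0114), which turned to 0.037 with median centring and to -0.09 without array 1 (adjusted p = 0.182), and which did not pass with the 2 conflicting scans kept (adjusted p = 0.0824). With outlier spots kept in the background fit none of the 4 values passed, at 0.036, 0.20, -0.076 and -0.011 (adjusted p = 1.00, 0.134, 0.676 and 1.00). Probe 2 was not well above background in Cy3 on any array and was so in Cy5 on 2 arrays, both of U87 10 Gy. The bound on its fold there came out under 1, so that no fold is given.

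**Figure D3:**
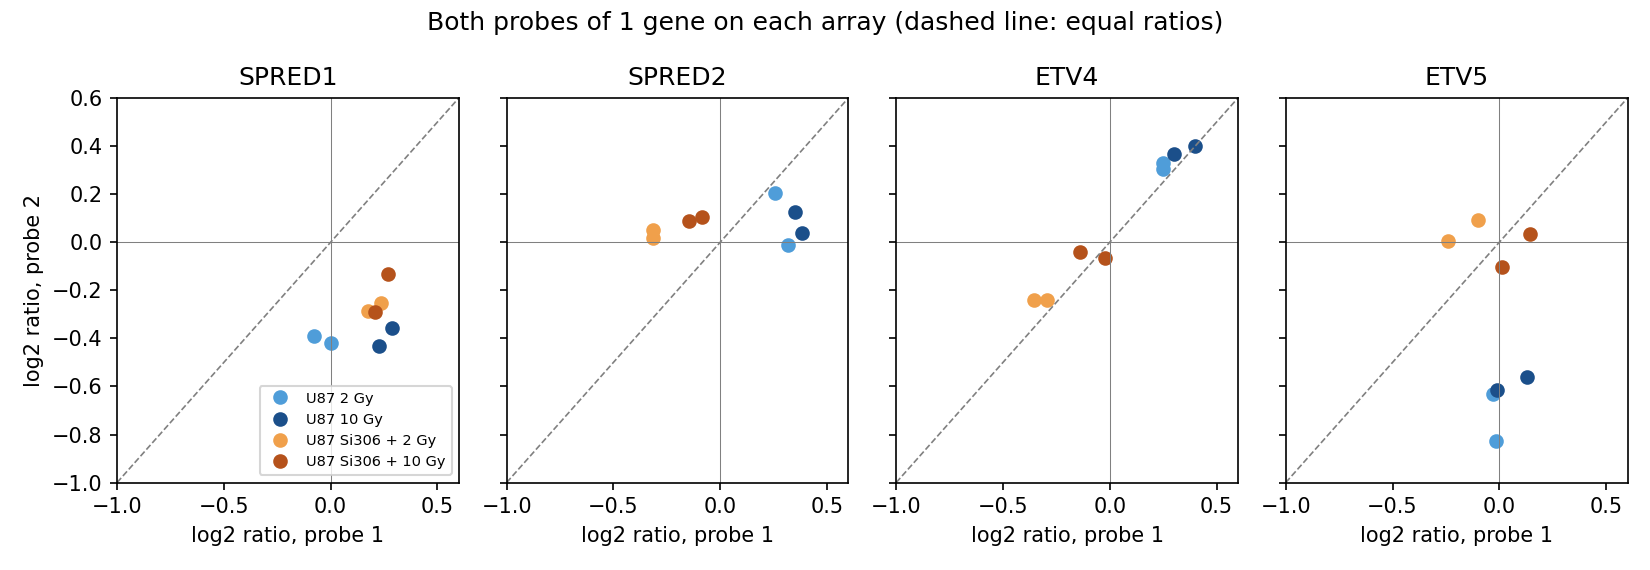
Log2 ratio of probe 2 (y axis) against that of probe 1 (x axis) for the 4 genes with 2 probes, with 1 point for each of the 8 arrays, coloured by configuration. The ETV4 points follow the dashed line of equal ratios, while SPRED1 lies below it on all 8 arrays and ETV5 lies far below it on the 4 arrays of PT alone.

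ETV4 was the gene whose probes were closest to each other. Probe 1 was at 0.25 and 0.25 in U87 2 Gy, at 0.30 and 0.40 in U87 10 Gy, at -0.29 and -0.35 in U87 Si306 + 2 Gy, and at -0.14 and -0.02 in U87 Si306 + 10 Gy. Probe 2 was at 0.33 and 0.31, 0.37 and 0.40, -0.24 and -0.24, and -0.04 and -0.06. Both probes were above 0 on all PT alone arrays and below 0 on all Si306 arrays. ETV4 rose by 0.25 and 0.32 in U87 2 Gy (probes 1 and 2, adjusted p = 0.000276 and 7.17e-06) and by 0.35 and 0.38 in U87 10 Gy (adjusted p = 1.78e-05 and 1.43e-06). It fell by 0.32 and 0.24 in U87 Si306 + 2 Gy (adjusted p = 2.94e-05 and 5.04e-05). In U87 Si306 + 10 Gy the values of -0.08 and -0.05 did not pass (adjusted p = 0.103 and 0.173).

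ETV4 was dim, with a log2 signal of 6.63 to 7.59 for probe 1, and the sizes of its ratios depended on how the ratio was made. With a normexp offset of 16 in place of 50, ETV4 was at 0.36, 0.51 and -0.42 by probe 1 in U87 2 Gy, U87 10 Gy and U87 Si306 + 2 Gy. By the log ratio of the scanner software, which differs in background and dye correction, probe 1 was at 0.55, 0.60 and -0.69 in the same order, and probe 2 at 0.87, 0.84 and -0.56. At the other end, with outlier spots kept in the background fit no ETV4 call held. Probe 1 was then at 0.023, 0.16 and -0.075 (adjusted p = 1.00, 0.135 and 0.564) and probe 2 at 0.029, 0.19 and -0.051 (adjusted p = 1.00, 0.135 and 0.823). Other dim probes also moved away from 0 by the scanner ratio. By it SPRED1 probe 2 was at -0.67, -0.67, -0.46 and -0.36 in the 4 configurations, and SPRED2 probe 1 at -0.67 with Si306 at 2 Gy and at -0.34 with Si306 at 10 Gy.

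ETV5 gave different answers by its 2 probes. Probe 1 lies at chr3:187247249-187247308 on the minus strand of hg17, and for probe 2 the array annotation lists an interval shorter than the probe, so that its place within the gene is not given here. The first 30 bases of each are shown for the same reason as for SPRED1.
ETV5 probe 1: tttatagctttcttaacctacacatagtct
ETV5 probe 2: agaagggctctgatttgcacaatttgttga
Probe 2 was at -0.83 and -0.63 in U87 2 Gy, at -0.56 and -0.61 in U87 10 Gy, at 0.01 and 0.09 in U87 Si306 + 2 Gy, and at 0.04 and -0.10 in U87 Si306 + 10 Gy. Probe 1 was at -0.01 and -0.03, 0.13 and -0.01, -0.24 and -0.10, and 0.14 and 0.01. The PT alone arrays were far below 0 by probe 2 and close to 0 by probe 1.

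By probe 2 ETV5 fell by 0.73 ± 0.05 in U87 2 Gy (0.603 of the control, adjusted p = 4.50e-07; -1.10 by the log ratio of the scanner software) and by 0.59 ± 0.05 in U87 10 Gy (0.665 of the control, adjusted p = 1.87e-06). Both calls were lost with outlier spots kept in the background fit, which gave -0.15 (adjusted p = 0.699) and -0.31 (adjusted p = 0.129). By probe 1 it was at -0.02 (adjusted p = 0.729) and 0.06 (adjusted p = 0.317) there. In U87 Si306 + 2 Gy probe 1 fell by 0.17 (adjusted p = 0.00812), which turned to 0.18 with median centring, to -0.10 without array 1 (adjusted p = 0.204) and to -0.048 with outlier spots kept (adjusted p = 0.423), and probe 2 was at 0.05 (adjusted p = 0.409). Neither probe passed in U87 Si306 + 10 Gy. ETV5 probe 2 also varied between arrays in level, with a log2 signal of 7.30 to 8.47 on slide 1 and of 7.02 to 7.77 on slide 2.

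The difference between the doses was taken next, since a dye preference that a probe has on every array cancels in it. After PT alone 2 of 14 probes differed between 10 and 2 Gy (1 up, 1 down), where 19.8% of all tested probes did (9.23% up, 10.6% down). DUSP6 was lower at 10 Gy, with a difference of -0.34 ± 0.05 (adjusted p = 0.000850), and SPRED1 probe 1 was higher by 0.30 ± 0.05 (adjusted p = 0.00278). Neither reached 1.5-fold, as 0.313% of all probes did upward and 0.207% downward. Both calls were lost when the 2 scans with conflicting labels were kept under their labels (DUSP6 -0.09 and SPRED1 probe 1 0.07, adjusted p = 0.996 for both), a setting under which no probe of the array passed. They were also lost with outlier spots kept in the background fit (-0.29, adjusted p = 0.115, and 0.13, adjusted p = 0.549), where 1.19% of all probes passed.

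With Si306 the doses differed in 9 of 14 probes (5 up, 4 down), where 21.1% of all tested probes differed (9.31% up, 11.8% down). With outlier spots kept in the background fit 1 of 14, DUSP1, passed, where 0.981% of all probes did, and with median centring 9 of 14 did, where 59% of all probes did. With the 2 conflicting scans kept under their labels 4 passed, where 7.83% of all probes did. At 10 Gy DUSP1 (-0.84 ± 0.05, adjusted p = 1.68e-06), SPRY2 (-0.54 ± 0.05, adjusted p = 4.39e-05), DUSP4 (-0.32 ± 0.06, adjusted p = 0.00451, and -0.36 without the array that held 1 scan value) and DUSP5 (-0.16 ± 0.05, adjusted p = 0.0464) were lower than at 2 Gy. SPRY4 was higher at 10 Gy by 0.25 ± 0.04 (adjusted p = 0.00290), which turned to -0.024 with median centring. SPRED2 probe 1 (0.20, adjusted p = 0.0147), ETV4 (0.24 and 0.19, adjusted p = 0.0116 and 0.0135) and ETV5 probe 1 (0.25, adjusted p = 0.0241) were higher too. DUSP1 was the one probe at 1.5-fold or more, where 0.461% of all probes were lower by as much and 0.329% higher.

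The calls for DUSP1, SPRY2, DUSP4 and SPRY4 held without any 1 array. Leaving out array 2 of U87 Si306 + 2 Gy or array 2 of U87 Si306 + 10 Gy left 5 of the 9 calls, where 13.6% and 10% of all probes passed. ETV4 probe 1 was then at 0.21 and 0.19 (adjusted p = 0.0717 and 0.105) and DUSP5 at -0.10 and -0.17 (adjusted p = 0.254 and 0.142). DUSP5 was also lost without array 1 of U87 Si306 + 10 Gy (-0.15, adjusted p = 0.173) and without either array of U87 10 Gy (-0.16, adjusted p = 0.0619). SPRED2 probe 1 was lost without array 1 or 2 of U87 Si306 + 2 Gy (adjusted p = 0.0699 and 0.0610) or array 2 of U87 Si306 + 10 Gy (adjusted p = 0.114). ETV4 probe 2 was lost without any 1 of the 4 Si306 arrays (adjusted p = 0.0582 to 0.0859). ETV5 probe 1 was lost without array 1 of U87 Si306 + 2 Gy (0.18, adjusted p = 0.174) or of U87 Si306 + 10 Gy (0.18, adjusted p = 0.166). By the log ratio of the scanner software 5 of 14 probes passed, without DUSP5, ETV4 and ETV5, where 16.9% of all probes did. Whether the dose difference with Si306 differed from that after PT alone was not tested.

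**Figure D4:**
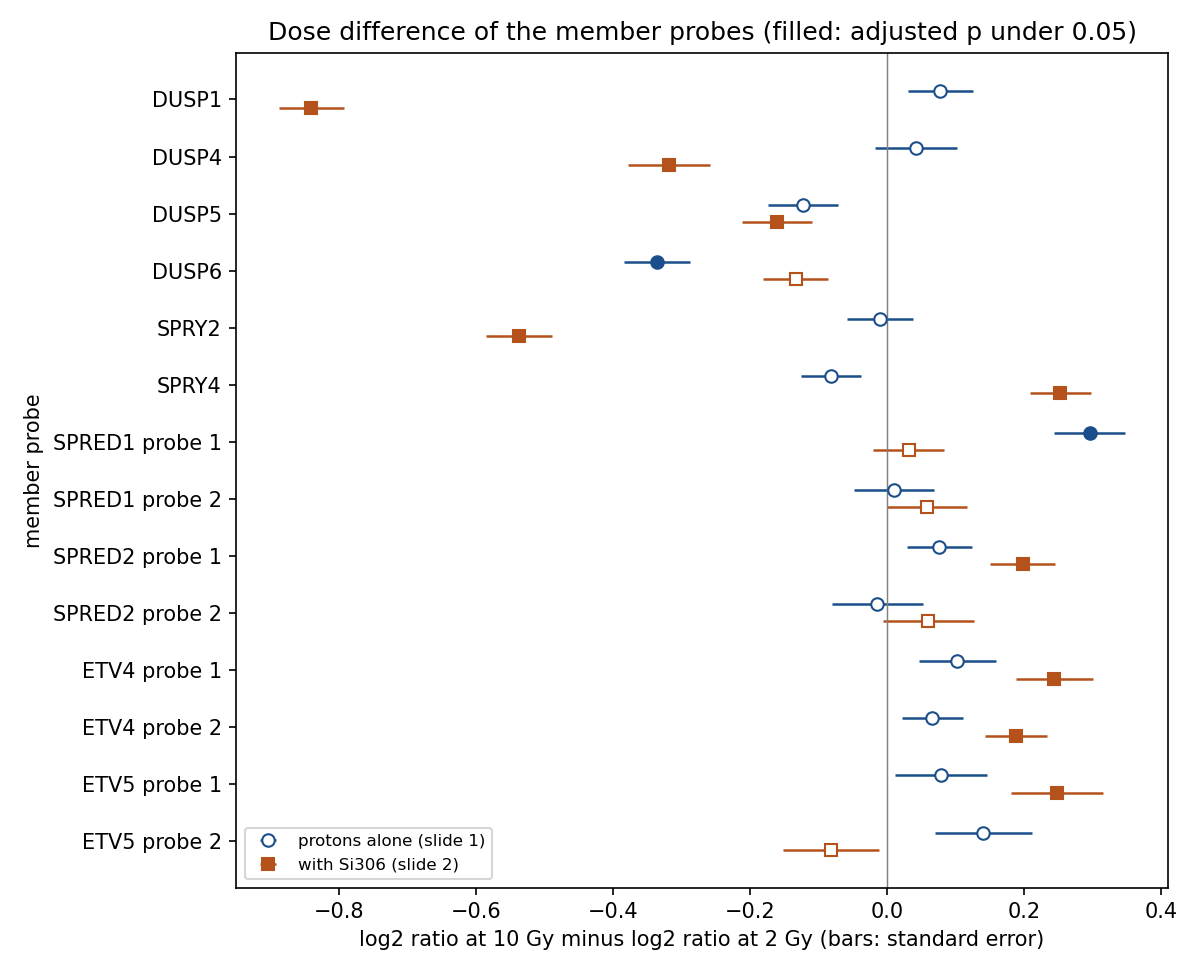
Log2 ratio at 10 Gy minus that at 2 Gy (x axis) with its SE for each member probe (y axis), after PT alone (circles) and with Si306 (squares), filled where the adjusted p is under 0.05. DUSP1 with Si306 stands farthest from 0 at -0.84, followed by SPRY2 with Si306 at -0.54 and by DUSP6 after PT alone at -0.34.

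Adding the PT alone and the Si306 ratio of a dose gives an estimate of the combined treatment against untreated cells. This sum joins RNA of the 2 slides, whose signals for RNA of 1 label differed as given above, and a dye preference adds up in it, so that only counts are given. At 2 Gy 7 of 14 probes passed (4 up, 3 down), against 66.6% of all probes (39.7% up, 26.9% down), and at 10 Gy 10 did (6 up, 4 down), against 65.5% (37.4% up, 28.1% down).

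Other genes of the pathway were counted from fixed lists, with the brightest probe of each gene. Of 22 other genes known as ERK targets, 15 rose and 4 fell in U87 2 Gy, 13 rose and 6 fell in U87 10 Gy, 10 rose and 8 fell in U87 Si306 + 2 Gy, and 9 rose and 7 fell in U87 Si306 + 10 Gy. Of all tested probes 32.1%, 31.4%, 36.3% and 33.1% rose and 25.1%, 26.8%, 28.5% and 27.8% fell in the 4 configurations. The median log2 ratio of the 22 genes was 0.26, 0.26, 0.02 and 0.05, against 0.02, 0.01, 0.03 and 0.02 over all tested probes. At 2-fold or more, EGR1, an early growth response factor, was up regulated in U87 2 Gy (1.15 ± 0.04). FOS, which like DUSP1 is an immediate early gene, was down regulated in U87 10 Gy (-1.58 ± 0.04) and up regulated in U87 Si306 + 2 Gy (2.09 ± 0.04). The 10 Gy minus 2 Gy difference was -1.94 ± 0.05 for FOS with Si306 and -1.38 ± 0.05 for EGR1 after PT alone. The directions of these values of FOS and EGR1 held under all 21 alternatives. The calls of EGR1 were lost with the 2 conflicting scans kept under their labels (0.70, adjusted p = 0.0512, in U87 2 Gy), and the dose difference of FOS with Si306 was lost with the outlier spots kept in the background fit (-1.33, adjusted p = 0.0762).

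The counts that follow stand beside the same shares, 57.2%, 58.2%, 64.8% and 60.9% of all tested probes called in the 4 configurations. Among the kinases and adaptors from RAS to ERK, 19 of 21 genes were tested, and 11 rose and 6 fell in U87 2 Gy, 10 and 5 in U87 10 Gy, 4 and 7 in U87 Si306 + 2 Gy, and 4 and 6 in U87 Si306 + 10 Gy. MAP2K2, which encodes the ERK kinase MEK2, reached 1.03 ± 0.04 in U87 2 Gy. Of 8 tested MAPK phosphatases outside the list 1 rose and 4 fell in U87 2 Gy, 1 and 2 in U87 10 Gy, 5 and 1 in U87 Si306 + 2 Gy, and 4 and 0 in U87 Si306 + 10 Gy. Of 12 other negative regulators of RAS and ERK 3 rose and 6 fell, 3 and 5, 4 and 4, and 3 and 6 in the same order. SPRY1, SPRY3 and ETV1, the relatives of the members that were tested, had 2 rises and 0 falls, 2 and 0, 2 and 1, and 0 and 1. Of 8 SRC family genes 3 rose and 2 fell in each PT alone configuration and 5 rose and 2 fell in each with Si306. As a check of the irradiation, the p53 target CDKN1A rose by 0.38 in U87 2 Gy and by 1.19 in U87 10 Gy, while MDM2, another p53 target, was at -0.21 and 0.10.

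The genes whose log2 ratio over the 8 arrays was most like that of DUSP6 were sought among 6157 genes that varied at least 0.5 times as much. They were KLF2 (r = 0.994), LYST (0.991), RPS6KA5 (0.990), FUBP1 (0.990) and DENND1A (0.990). These arrays share slides and control RNA, so the correlations are given as a description. KLF2 was at 0.38, -0.07, -0.28 and -0.41 in the 4 configurations, against 0.26, -0.08, -0.22 and -0.36 for DUSP6. FUBP1 also had the signs of DUSP6, and DENND1A had them except in U87 10 Gy (0.10). A high r did not mean the same direction, however. LYST was above 0 in all 4 configurations (1.01, 0.40, 0.13 and 0.01) and RPS6KA5 below 0 in all 4 (-0.02, -0.25, -0.38 and -0.46).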

How the data were processed

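The authors deposited, for each scan, the table of the scanner software (Agilent Feature Extraction 9.5.3.1, array design on hg17): green and red mean signal intensity and local background of 45015 spots, plus the log10 ratio computed by the software from its own corrected signals. They also deposited a series matrix of that log10 ratio, rounded, which differs by at most 0.005. Per the file headers, 24 scans came from 8 arrays. For 2 scans the label named another dose than the array, and the other 22 were used.

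Spots marked as outliers in signal or background (2.98% to 5.73% of a scan) were left out first. Up to 21 of these in a scan had a local background far above their signal, and which of the outlier spots alter the background fit was not tested. Intensities were then corrected with normexp (offset 50), normalized by loess, and averaged over spots and over scans of an array. The offset shrinks the ratios of dim probes. A probe was kept if, in some configuration, 2/3 or more of its arrays had Cy3 or Cy5 well above background, and all kept probes were fitted with limma 3.58.1 (R 4.3.3), with Benjamini-Hochberg adjustment over all probes. Degrees of freedom were 4 (residual) plus 6.79 (prior). Configurations were tested against 0 and doses against each other. The procedure was tested on simulated data with independent noise and 200 changed probes in each configuration, far fewer than were called here. That simulation held no dye preference, slide effect or shared technical spread, so it cannot speak to these. The number of arrays limits the precision. The median SD between the 2 arrays of a configuration was 0.122, against 0.0884 between scans of an array.

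Alternatives were the software log ratio, the series matrix, offset 16 or no background correction, outlier spots kept, median centring, a curve on GC content, other filters, 1 probe for each gene name, all scans with the array or the replicate number as a block, scans kept under their labels, and leaving out each array.

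The design had foreseen a sample for each file. Members and gene lists were chosen with earlier results of these data known. Named were the 10 members, genes of the lists that changed at least 2-fold, CDKN1A and MDM2, and the 5 genes most like DUSP6. Marker genes were VIM, CD44, FN1, NES, S100B, GFAP, SOX2 and OLIG2, and PTPRC, CD3E, PECAM1, CDH5, VWF, EPCAM (TACSTD1 on the array), CDH1 and KRT5. A further marker of the design is not reported here. Gene names are those of the array.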

Additional observations from a re-analysis of the deposited data

Results flagged for a closer look

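The values below are dose differences (log2 ratio at 10 Gy minus that at 2 Gy) that passed the limma test with Benjamini-Hochberg adjustment. The test rests on the spread between these arrays, which may be technical. After PT alone these were DUSP6 (-0.34, adjusted p = 0.000850) and SPRED1 probe 1 (0.30, adjusted p = 0.00278). With Si306 DUSP1 (-0.84, adjusted p = 1.68e-06), SPRY2 (-0.54, adjusted p = 4.39e-05), DUSP4 (-0.32, adjusted p = 0.00451) and DUSP5 (-0.16, adjusted p = 0.0464) were lower at 10 Gy. SPRY4 (0.25, adjusted p = 0.00290), SPRED2 probe 1 (0.20, adjusted p = 0.0147), ETV4 probe 1 (0.24, adjusted p = 0.0116), ETV4 probe 2 (0.19, adjusted p = 0.0135) and ETV5 probe 1 (0.25, adjusted p = 0.0241) were higher. Both calls after PT alone were lost with the conflicting scans kept under their labels, and with outlier spots kept in the background fit. With Si306 DUSP1 alone passed with outlier spots kept, and SPRY4 turned its sign with median centring. DUSP5, SPRED2 probe 1, ETV4 and ETV5 probe 1 were lost without some single arrays.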

How the results depend on the processing

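Over 21 alternatives, 1734 values of the member probes were recomputed, and 24 turned their sign with a call on at least 1 side, all with median centring in place of loess. Those of SPRED2 probe 2 come from a probe at background, and nothing is read from them. Sign changes of values that passed on neither side were not counted. Median centring leaves a dependence on brightness, with a median log2 ratio of 0.59, 0.48, 0.94 and 0.59 for the brightest of 4 equal groups of probes in the 4 configurations and of -0.27, -0.21, -0.41 and -0.20 for the dimmest, and the median of all probes was 0.24, 0.20, 0.36 and 0.21 with it, against 0.02, 0.01, 0.03 and 0.02 with loess. The share of calls that were up went from 56.1%, 54.0%, 56.0% and 54.3% to 68.7%, 69.6%, 67.6% and 69.9%, and in the dose differences from 46.6% and 44.1% to 30.5% and 32.3%. Values turned in U87 2 Gy were DUSP1 0.49, SPRY2 0.50, SPRED1 probe 1 0.34, SPRED2 probe 2 -0.31 and ETV5 probe 1 0.27. In U87 10 Gy they were DUSP1 0.47, DUSP6 0.41, SPRY2 0.39 and SPRED2 probe 2 -0.32. In U87 Si306 + 2 Gy they were DUSP4 1.10, DUSP6 1.02, SPRY4 0.76, SPRED1 probe 2 0.13, SPRED2 probe 2 -0.82 and ETV5 probe 1 0.18. In U87 Si306 + 10 Gy they were DUSP4 0.38, DUSP5 0.52, DUSP6 0.46, SPRED1 probe 2 0.053, SPRED2 probe 1 0.037, SPRED2 probe 2 -0.31 and ETV5 probe 2 0.16. In the dose difference with Si306 they were SPRY4 -0.024 and SPRED1 probe 1 -0.20. For the counts of called probes, in the order of the 4 configurations, the dose differences after PT alone and with Si306, and the sums at 2 and 10 Gy, keeping the outlier spots in the background fit (chosen after seeing the data) left 2, 0, 4, 4, 0, 1, 3 and 2, where 11.1%, 12.3%, 22.4%, 13.6%, 1.19%, 0.981%, 18.2% and 14.6% of all probes passed. U87 10 Gy and the dose difference after PT alone then had no call by limma, with 8 and 1 probes at an unadjusted p under 0.05, where 36.8% and 10% of all probes were. Every scan with the replicate number as a block gave 12 in U87 Si306 + 10 Gy, 5 in the dose difference after PT alone and 11 in the sum at 2 Gy, against 75.9%, 41.7% and 78.1% of all probes. Deviations of same-numbered scans correlated at -0.09 to 0.09 over 30 pairs, with a median of -0.002, against 0.002 for different numbers. Yet 10 of 22 scans correlated best with their own number, and how many would without pairing was not computed. Whether the numbers pair the scans was not tested further. With the 2 conflicting scans kept under their labels the dose differences had 0 (also 0 at an unadjusted p under 0.05, where 1.43% of all probes were) and 4 calls (0% and 7.83% of all probes), and by the scanner software log ratio, as by the series matrix, the one with Si306 had 5 (16.9%). The sum at 2 Gy had 11 with median centring (90.7%), and the sum at 10 Gy had 6 with 1 probe for each gene name (65.7%). Leaving out 1 array gave 9 to 10, 7 to 10, 9 to 10, 5 to 8, 2 to 3, 5 to 9, 5 to 7 and 8 to 10, beside 47.3% to 56.8%, 43.7% to 60.1%, 51.2% to 66.7%, 45.5% to 62.9%, 10% to 18.6%, 10% to 23.5%, 58.5% to 65.5% and 56.7% to 67.3% of all probes. Beyond what is given for each setting, the cause was not tested. Limits are the 2 arrays for each configuration, the dim signal of ETV4, SPRED1, SPRED2 and ETV5, and the slide that differs with Si306.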
